A study of Rattus norvegicus with 4 samples.

Results

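The Id genes Id1, Id2, Id3 and Id4, which encode the inhibitor of DNA binding proteins, were followed in cultured rat ovaries with and without anti-Müllerian hormone (AMH). Every probe set whose only gene symbol in the platform annotation was one of these was taken, which gave 8 of the 31099 probe sets in the table: 1 for Id1, 2 for Id2, 1 for Id3 and 4 for Id4. All 8 passed the filter on dim probe sets. Both groups were whole ovaries removed from rat pups on postnatal day 4 and kept for 10 days on floating filters in medium with albumin, insulin, transferrin and ascorbic acid. The control ovaries received no further addition and the others 50 ng/mL AMH, with 2 pools of about 10 ovaries in each group and 1 Affymetrix array per pool. No transgene or mutation is named in the labels, and the strain of the rats and the source of the hormone are not given in the sources used here. The organ is a mixture of cell types, so that fewer cells of a type and less RNA per cell cannot be told apart.

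ID proteins carry a helix-loop-helix domain without the basic region that touches DNA. They pair with E proteins such as TCF3, TCF4 and TCF12 and keep them from forming the DNA-binding dimers that tissue-restricted helix-loop-helix factors need, so high ID levels are generally linked to proliferation and a less differentiated state. Id1, Id2 and Id3 are among the best known direct targets of BMP signalling, and AMH uses the same route: its own type II receptor AMHR2 recruits BMP type I receptors, which activate SMAD1, SMAD5 and SMAD9. In the ovary, Id transcripts in granulosa cells are known to respond to BMPs and related ligands.

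The upstream sequences of the 4 genes are shown because Id1 and Id3 were called lower with AMH while the brightest probe sets of Id2 and Id4 were not. They were taken from RefSeq on the GRCr8 assembly, in which all 4 genes matched by Entrez identifier, and are printed 5′ to 3′ on the strand of the gene, from 250 bases before the annotated transcript start to the last base outside the RefSeq gene span. The stretches are chr3:161671314-161671524 (plus strand) for Id1, chr6:47470996-47471245 (minus strand) for Id2, chr5:153656041-153656252 (plus strand) for Id3 and chr17:16598294-16598543 (minus strand) for Id4. Capitals mark matches on either strand to 7 motifs. For SMAD proteins these are the GC-rich motif GGCGCC and the short core of the binding element, which reads GTCT. The E-box bound by helix-loop-helix dimers is CANNTG, and the core bound by ETS factors is CGGAAG. The general promoter elements searched were the CCAAT box and the TATA box, spelled TATAAA. The core of the cAMP response element was taken as TGACG.
Id1: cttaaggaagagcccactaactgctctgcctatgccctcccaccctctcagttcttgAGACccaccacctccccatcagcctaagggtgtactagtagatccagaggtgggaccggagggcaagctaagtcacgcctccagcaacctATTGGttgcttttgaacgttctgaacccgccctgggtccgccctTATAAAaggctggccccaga
Id3: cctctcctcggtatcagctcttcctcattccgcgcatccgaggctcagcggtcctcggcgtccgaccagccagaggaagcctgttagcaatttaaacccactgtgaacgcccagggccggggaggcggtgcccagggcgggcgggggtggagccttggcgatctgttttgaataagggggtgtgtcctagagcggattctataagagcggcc
Id2: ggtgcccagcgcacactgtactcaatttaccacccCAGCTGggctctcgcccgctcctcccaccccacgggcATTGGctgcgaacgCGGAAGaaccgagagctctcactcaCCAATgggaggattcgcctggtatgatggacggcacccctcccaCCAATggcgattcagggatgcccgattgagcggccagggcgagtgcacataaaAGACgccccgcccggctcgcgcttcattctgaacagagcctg
Id4: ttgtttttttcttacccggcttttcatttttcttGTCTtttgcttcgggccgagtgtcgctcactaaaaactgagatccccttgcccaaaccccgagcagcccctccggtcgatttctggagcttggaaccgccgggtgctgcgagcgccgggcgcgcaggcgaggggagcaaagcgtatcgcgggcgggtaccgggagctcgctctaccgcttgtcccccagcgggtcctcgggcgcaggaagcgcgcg
The search covered the table's full window of 300 bases, which ends 50 bases past the start. Id1 held a CCAAT box on the minus strand whose match begins 103 bases upstream, a TATA box 59 bases upstream, 2 GTCT cores (1 of them past the start) and, past the printed stretch, an E-box 9 bases upstream. Id3 held 0 matches to any of the 7 motifs. Id2 held 3 CCAAT boxes, an ETS core, an E-box and 1 GTCT core, and Id4 held 1 GTCT core and, past its start, 1 GGCGCC. No match overlapped another. Of 33469 rat promoter windows of the same length, GTCT was found in 88.8%, an E-box in 72.1%, a CCAAT box in 37.5%, TGACG in 21.2%, CGGAAG in 16.6%, TATAAA in 14.2% and GGCGCC in 11.0%. These matches are a description of the letters in the window.

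The arrays differed between the groups beyond the treatment. For GAPDH, the intensity of the 3′ control probe set over the 5′ one, a ratio that is higher in shortened RNA or cRNA, was 1.17 and 1.27 in control and 6.56 and 6.37 with AMH. The chip identifiers hold a different run string for each group, so run and treatment cannot be told apart. Ovarian markers were present: the oocyte gene Zp3 read 2531.1 and 2133.5 in control and 2721.8 and 1977.8 with AMH, and the granulosa cell gene Foxl2 read 539.3 and 395.1 against 600.2 and 617. The theca gene Cyp17a1 lay below the filter level on every array.

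In limma's moderated test at an adjusted p of 0.05, 3 of the 8 Id probe sets were lower with AMH and 0 were higher. The lower ones were Id1, Id3 and the dimmer probe set of Id2, which passed the filter through its control values alone. Either direction together took 21.5% of all tested probe sets and 22.9% of genes at their brightest probe set. By the same rule 12.8% of all 18625 tested probe sets were lower and 8.67% higher. Of the 8, 2 had an unadjusted p under 0.05 without passing, both of Id4 and opposite in sign (0.59 and -0.72). Of 10622 genes at their brightest probe set, 4046 had an unadjusted p under 0.05 and 2432 were called. Bright probe sets were called more often: among the 829 with a mean intensity of 1000 or more, as for Id1, Id3 and the brighter Id2 probe set, 24.5% were lower and 19.8% higher (44.3% in all; this level was picked after the values were seen). The groups did not overlap for 4 Id probe sets that were lower and 2 that were higher with AMH, a pattern shown by 31.2% and 32.2% of all tested probe sets. A negative change means a lower log2(intensity + 16) with AMH than in control, and ± gives its standard error (n = 2 arrays per group). P-values are adjusted over all tested probe sets. Precision is limited by how few arrays there are. With 2 arrays against 2 an exact permutation test cannot go below p = 0.333, so the adjusted p-values rest on the spread pooled over all probe sets.

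**Figure D1:**
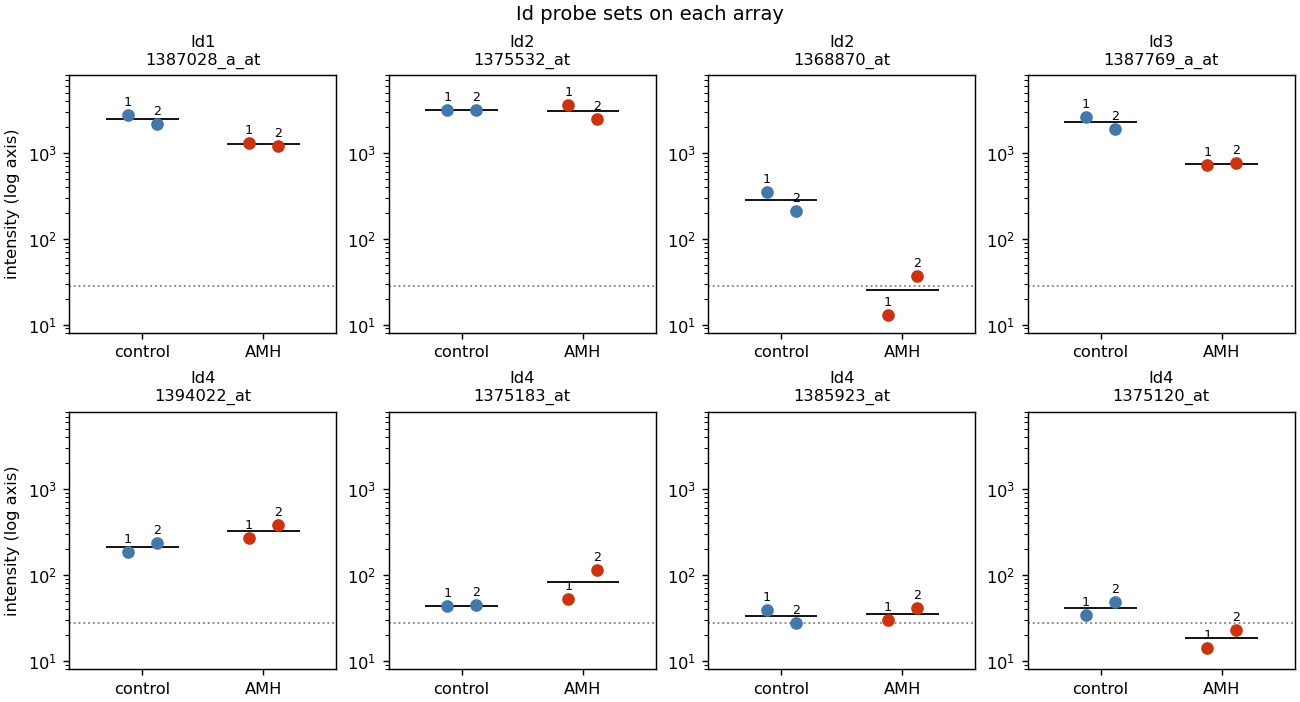
Intensity (log axis) of each of the 8 Id probe sets on the 2 control and 2 AMH arrays. Points are arrays labelled by replicate number, panels of a gene run from its brightest to its dimmest probe set, bars are group means and the dotted line is the filter level of 27.8. The Id1 and Id3 points separate by group, whereas the Id2 probe sets behave differently from each other.

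Id1, a well studied BMP target, was lower with AMH. Its intensity was 2743.8 and 2187.7 in control and 1304.8 and 1219.4 with AMH. Both AMH arrays lay below both control arrays and close to each other, 0.10 apart on the log2 scale against 0.32 for the controls. The change was -0.95 ± 0.16, a 1.93-fold fall (95% interval -1.31 to -0.59, adjusted p = 0.00551). Of all tested probe sets, 8.15% had a lower value. Without control replicate 1, the control array on which Id1 read higher, the change was -0.79 and the call ended. It was kept in 14 of 15 alternatives, with changes between -1.43 and -0.79 over all of them.

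Id3, which is often induced together with Id1 by BMPs, fell further. It read 2648 and 1892.9 in control and 715.6 and 759.1 with AMH. The AMH arrays were 0.08 apart on the log2 scale, the controls 0.48, and no array of either group reached the range of the other. The change was -1.58 ± 0.18 (2.99-fold, 95% interval -1.996 to -1.169, adjusted p = 0.00128), and 1.97% of tested probe sets had a lower value. The call was kept under all 15 alternatives, with changes between -2.06 and -1.34.

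Id2, which also binds the retinoblastoma protein, was called lower at one probe set and not called at the other. The brighter one read 3142.3 and 3149.6 in control and 3592.5 and 2498.8 with AMH. The control arrays were nearly equal and lay between the AMH arrays. The change was -0.07 ± 0.18 (95% interval -0.49 to 0.35, adjusted p = 0.818). The dimmer one read 354.7 and 210.1 in control and 13 and 36.9 with AMH. Both AMH values were under both controls, and their mean, 24.95, did not reach the filter level of 27.8, and the size of the fall depended on the constant added. The change was -2.89 ± 0.34 (7.39-fold, adjusted p = 0.00142), at -1.94 with 64 added and -3.57 with 1 added. Only 0.0913% of tested probe sets had a lower value, although the call itself held under all 14 alternatives run on it. The dimmer probe set passed the filter through its control values alone, so its call is a description. The mean of both probe sets, counted among the 15 alternatives of the brighter one, gave -1.48 (adjusted p = 0.00415, with 0.00415 to 0.988 over these alternatives). It was the only one of these alternatives that was called.

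The 2 Id2 probe sets were also compared within arrays. The log2 level of the brighter minus that of the dimmer was 3.09 and 3.81 in control but 6.96 and 5.57 with AMH. In the fit over 3425 probe set pairs this was a shift of 2.82 ± 0.34. The dimmer probe set passed the filter through its control values alone, which favours a shift in this direction. The shift is therefore given without its test. Such disagreement was common on these arrays: 33.6% of 3419 probe set pairs from 2609 genes shifted toward the brighter probe set and 8.13% toward the other, with a median shift of 0.39. The brightest probe set was chosen by its mean over all 4 arrays, AMH arrays included, which favours the first direction. The Id2 shift was larger than that of 99.6% of the pairs, a rank that is a description for the same reason. On the same arrays the GAPDH control probe sets changed by -0.32 at the 3′ end, -1.33 in the middle and -2.68 at the 5′ end, and those of beta-actin by -2.36, -3.39 and -3.82. The sources used here do not give the place of each Id probe set along its transcript, and the part of RNA shortening in the Id2, Id1 and Id3 values was not tested.

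**Figure D2:**
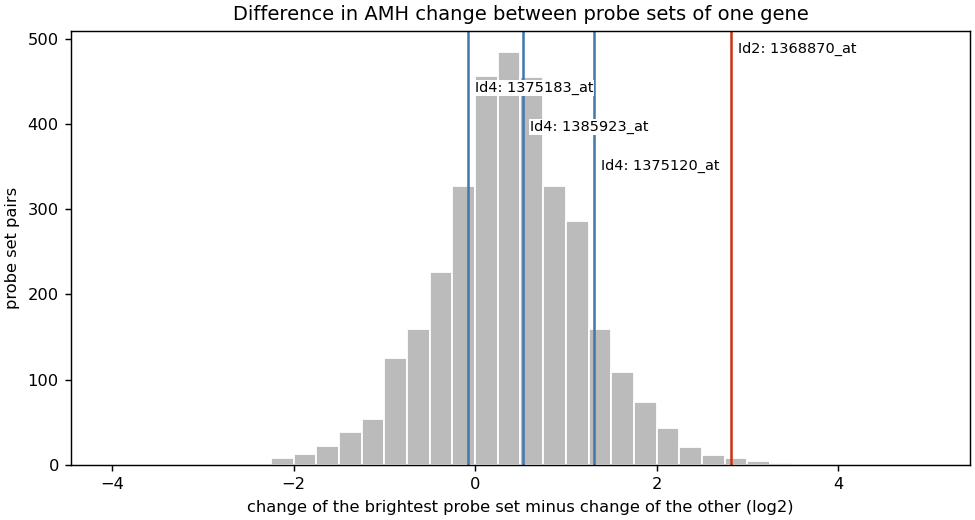
Histogram of the difference in AMH change (log2) between the brightest and each other tested probe set of a gene, over 3419 pairs, with vertical lines for the 4 Id pairs, labelled with the platform's identifier of the dimmer probe set. The Id2 line at 2.82 stands in the far right tail, while the Id4 lines at -0.08, 0.52 and 1.30 fall within the bulk or on its right shoulder.

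Id4, the family member whose product is known to oppose the other ID proteins in some tissues, was not called at any of its 4 probe sets. The brightest read 182.2 and 235.6 in control and 270.4 and 376.2 with AMH. Both AMH arrays were above both controls, by less than the AMH arrays differed from each other. The change was 0.59 ± 0.21 (95% interval 0.10 to 1.08, adjusted p = 0.0853). The second in mean level read 42.9 and 44 in control and 52.7 and 113.4 with AMH, and its AMH arrays were 0.91 apart on the log2 scale. Its change was 0.67 ± 0.31 (95% interval -0.05 to 1.38, adjusted p = 0.163), and AMH replicate 2 was the higher. Without AMH replicate 1 the call was gained for the brightest (0.81, adjusted p = 0.0159, with 0.0159 to 0.758 over 15 alternatives) and for the second (1.12, adjusted p = 0.0102, with 0.0102 to 0.598 over 13).

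The remaining Id4 probe sets were dim. The third in mean level read 39.1 and 27.4 in control and 29.5 and 41.3 with AMH, with overlapping groups and a change of 0.06 ± 0.27 (95% interval -0.56 to 0.68, adjusted p = 0.895). The dimmest read 33.8 and 47.6 in control and 14.2 and 22.7 with AMH. Its AMH values lay under the filter level and below both controls, and its change was -0.72 ± 0.28 (95% interval -1.37 to -0.07, adjusted p = 0.106). With its mean log2 of 5.45 it passed the filter by a narrow margin. As it passed through its control values, the shift of the brightest Id4 probe set relative to it, 1.30 ± 0.27, is given without its test. Shifts of the brightest of -0.08 ± 0.27 relative to the second and 0.52 ± 0.30 relative to the third did not pass (limma over probe set pairs, adjusted p = 0.837 and 0.169). The Id4 probe sets thus differed in sign, and their mean gave 0.15 (adjusted p = 0.69).

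**Figure D3:**
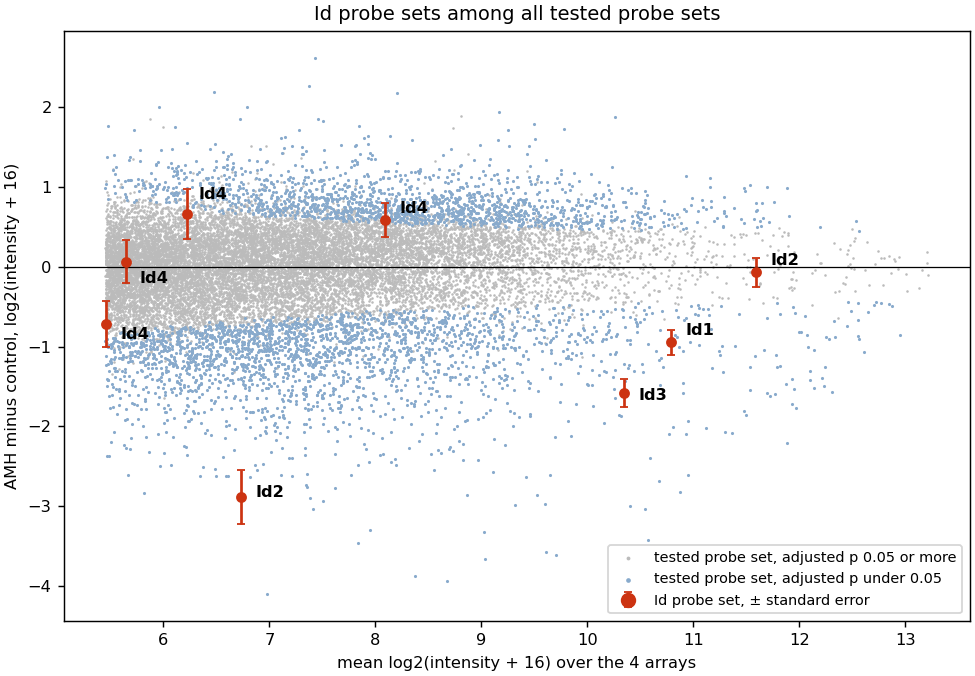
Change with AMH on the log2(intensity + 16) scale against the mean level over the 4 arrays for all 18625 tested probe sets, grey where not called and blue where called. The 8 Id probe sets are red with standard errors: Id1 and Id3 lie low among bright probe sets, the dimmer Id2 probe set at -2.89 is near the bottom edge, and the Id4 probe sets lie between -0.72 and 0.67.

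The Id genes also differed from each other in their change. At their brightest probe sets the 6 pairs were compared within arrays, in the same fit as the probe set pairs. There 41.7% of pairs from one gene were called, and no share was computed for pairs of different genes. Id3 changed by 2.17 ± 0.25 less than Id4 (adjusted p = 1.57e-05), Id2 by 1.51 ± 0.21 more than Id3 (adjusted p = 7.33e-05) and Id1 by 1.53 ± 0.24 less than Id4 (adjusted p = 0.000193). All 3 kept their call under the 8 alternatives run. Id1 was also 0.88 ± 0.18 lower in its change than Id2 (adjusted p = 0.00154), a call lost without control replicate 1 (-0.72, adjusted p = 0.0638, with 4.51e-05 to 0.0638 over 8 alternatives). The fall of Id3 exceeded that of Id1 by 0.63 ± 0.17 (adjusted p = 0.00758). That difference was lost without control replicate 1 (0.56, 0.0913), without AMH replicate 1 (0.54, 0.051) and without the intensity trend (0.0551), in a range of 0.00653 to 0.0913 over 8 alternatives. Id2 and Id4 did not differ by the threshold (-0.66 ± 0.26, adjusted p = 0.0546), though they did without AMH replicate 1 (-1.14, 0.000833) and with the replicate block (0.00789, in a range of 0.000833 to 0.592). These comparisons use 1 probe set per gene, and for Id2 and Id4 another probe set read differently.

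The choice of scaling shifted all Id probe sets together. With arrays scaled to the 9 hybridization controls, spiked in after RNA extraction, the processing moved the median change of all tested probe sets from 0.02 to -0.39 and the share of lower among called ones from 59.6% to 97.1%, with 26.5% of tested probe sets lower and 0.784% higher. On that scale Id3 gave -2.06, Id1 -1.43, the brighter Id2 probe set -0.55 (adjusted p = 0.0899) and the brightest Id4 probe set 0.13 (adjusted p = 0.758). The dimmest Id4 probe set was then called lower (-1.01, adjusted p = 0.0247, with 0.0247 to 0.485 over 13 alternatives).

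**Figure D4:**
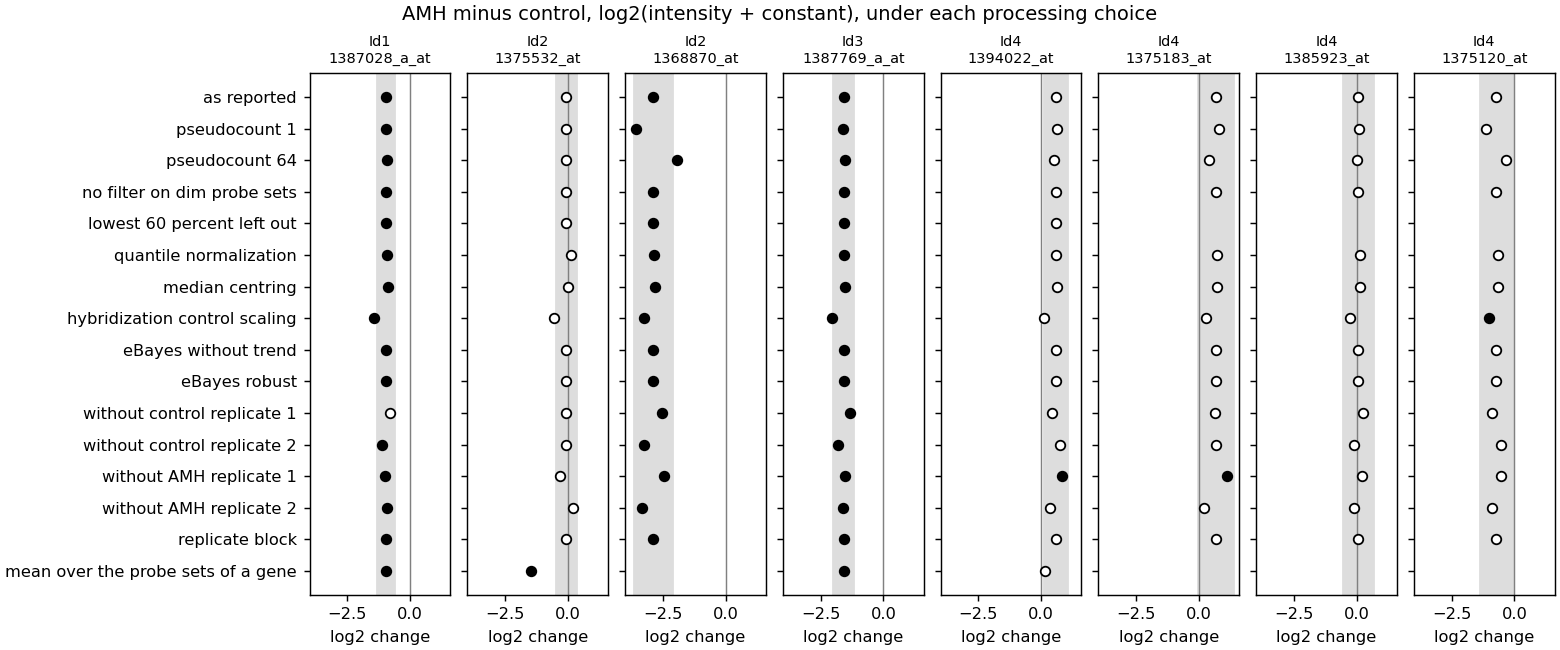
Change with AMH (log2) of each Id probe set as reported and under each processing alternative. Filled points have an adjusted p under 0.05, grey bands are the 95% interval of the reported fit, and a missing point is an alternative that does not hold the probe set. Id3 and the dimmer Id2 probe set are filled throughout, and Id1 is open only without control replicate 1.

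Genes with the most similar pattern were sought by the root mean square difference between log2 values of the 4 arrays, each probe set centred on its own mean. For Id3 the nearest were Isoc2b (0.014), Cltb (0.056), Fkbp1a (0.058), Pabpc4 (0.061) and Usp30 (0.069), and 19 genes came within 0.1. For Id1 they were Kcng3 (0.030), Cox15 (0.032), a dimmer probe set of the BMP type I receptor gene Acvr1 (0.032), Slc25a51l1 (0.033) and Dcakd (0.035), with 142 genes within 0.1. For the brighter Id2 probe set they were Cerk, Dnaaf10, Pfdn2, Map3k1 and Stra6 (0.012 to 0.022, 432 genes within 0.1), and for the brightest Id4 probe set Pbx2, Myh11, C10h16orf90, Zdhhc6 and Steap4 (0.018 to 0.037, 132 genes within 0.1). Id1 and Id3 differed by 0.33 from each other, and 17.7% of all genes were nearer to Id1 than Id3 was. With 4 arrays in 2 groups the measure reflects mainly the size of the group difference.

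The genes around the Id family in the same pathway moved in both directions. Over 11 lists, 132 genes were listed and 81 tested at their brightest probe set, of which 13 were higher, 13 lower and 55 not called, with a median change of 0.01. Among all 10622 tested genes 11.0% were higher and 11.9% lower, with a median of 0.07. The 13 rises became 0 and the 13 falls 25 with hybridization control scaling. Leaving out an array gave 1 rise and 10 falls (control replicate 1), 2 and 8 (control replicate 2), 10 and 13 (AMH replicate 1) or 14 and 14 (AMH replicate 2). No filter gave 5 rises, eBayes without trend 5, the replicate block 8 and the mean over probe sets 7.

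Of 12 receptor and SMAD genes, 3 were higher, 1 lower and 8 not called, with a median of 0.24. Amhr2, the AMH receptor, rose by 0.70 ± 0.21 and Bmpr2, the BMP type II receptor, fell by 1.07 ± 0.21. Smad9 (0.71 ± 0.19) and the activin receptor gene Acvr2a (0.90 ± 0.23) were the other rises. Acvr2b (-0.61 ± 0.23) and the BMP type I receptor gene Bmpr1a (-0.19) did not pass. Amhr2 lost its call in 8 of 15 alternatives, among them those without control replicate 2 (0.45, 0.324) and AMH replicate 2 (0.52, 0.0861), no filter, quantile normalization, no trend and the replicate block (0.0642). Calls were also lost for Bmpr2 without control replicate 2 (0.0781), and Smad9 and Acvr2a without control replicate 1 (0.149 and 0.129), control replicate 2 (0.183 and 0.0913) and AMH replicate 1 (0.0713 and 0.064). Over 15 alternatives each, adjusted p-values of the 4 genes lay between 0.00217 (Bmpr2) and 0.605 (Amhr2). Some genes had a brighter probe set that was not called and dimmer ones called lower, as Id2 did. The brighter probe sets of Smad1 (0.09), Smad4 (0.08) and Acvr1 (0.43) were not called, and the dimmer ones gave -1.14, -1.07 and, for Acvr1, -0.92 and -1.31. For Smad5 the brightest gave -0.19, and of 3 others 2 were called lower (-1.92 and -0.83) and 1 was not (0.22). The dimmer Smad1 probe set (15.1 and 16 with AMH), the dimmest of Acvr1 (18.2 and 7.9) and that of Smad5 at -1.92 (14.3 and 21.5) passed the filter through control and lay under its level with AMH, so their changes are a description.

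Of 10 tested SMAD targets and feedback genes other than the Id genes, 2 were higher, 2 lower and 6 not called. Bambi, which encodes a decoy receptor induced by BMPs, read 1082.2 and 861.9 in control and 409.8 and 303.1 with AMH, with no overlap. Its fall of 1.41 ± 0.19 (adjusted p = 0.0027) was kept in all 15 alternatives and lay between those of Id1 and Id3. The inhibitory SMAD genes did not pass at their brightest probe sets, with 0.39 ± 0.30 for Smad6 and -0.24 ± 0.24 for Smad7, although a dimmer Smad6 probe set, under the filter level with AMH, gave -1.13. Without AMH replicate 1 the brightest Smad6 probe set was called (0.82, 0.0293), and without AMH replicate 2 it gave -0.04 (0.0293 to 0.995 over 15 alternatives). Junb (-0.84) fell, and Hes1 (0.55) and Smurf2 (0.69) rose, all with adjusted p between 0.0437 and 0.0459. The dimmer Smurf2 probe set was called lower (-0.72, adjusted p = 0.0474), and the mean of both gave -0.015. Junb lost the call in 6 of 14 alternatives, Hes1 in 7 of 15 and Smurf2 in 8 of 15. Junb and Hes1 lost it without control replicate 1 (-0.94 and 0.55) and control replicate 2 (-0.74 and 0.54). They also lost it without AMH replicate 1 (-0.61 and 0.49). Smurf2 lost it without control replicate 1 (0.46) and AMH replicate 1 (0.50). Over all alternatives these 3 genes ran from 0.00899 (Smurf2) to 0.97 (Smurf2).

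The list of BMP ligand genes gave 3 falls and 0 rises among 7 tested (limma, and 3 by an unadjusted p under 0.05, all of them falls). The oocyte ligand genes Gdf9 and Bmp15 fell by 2.14 ± 0.19 and 1.93 ± 0.23. Bmp15 read 147.5 and 115.2 in control and 22.6 and 22.3 with AMH. It passed the filter through control and lay under its level with AMH, so its fall is a description. Bmp4, a stromal BMP, fell by 1.06 ± 0.22, from 108.2 and 142.4 to 51.5 and 51.3 (adjusted p = 0.0128), and lost its call without control replicate 2 (0.121, with 0.00188 to 0.121 over 15 alternatives). Bmp2 (0.02) and Bmp3 (0.49) did not pass. Bmp3 was called without AMH replicate 2 (1.18, 0.00622) and gave -0.20 without AMH replicate 1 (0.00622 to 0.911 over 15 alternatives). Of 9 tested BMP antagonists and modulators, Bmper (1.43 ± 0.43) and Twsg1 (0.53 ± 0.14) rose and 7 were not called, with Nbl1 at -0.44 and Rgma at -0.43. Bmper lost its call in 9 of 15 alternatives, among them those without control replicate 1 (0.79) and AMH replicate 2 (1.01). Twsg1 lost it in 8 of 15, among them those without control replicate 1 (0.49) and control replicate 2 (0.57). Their adjusted p ran from 0.00178 (Bmper) to 0.874 (Twsg1) over 15 alternatives each.

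Of the E proteins, the direct partners of ID proteins, Tcf12 was called higher at its brighter probe set and Tcf4 was called lower only at its dimmer one. Tcf12 read 496.7 and 461.9 in control and 857.1 and 830.1 with AMH at its brighter probe set (0.80 ± 0.15, adjusted p = 0.0083). Its dimmer probe set read 81.2 and 69 against 26.4 and 27.2 (-1.09 ± 0.23). As it passed the filter through control and lay under its level with AMH, this change is a description. Their mean did not pass (-0.15, adjusted p = 0.537), and without control replicate 1 or 2 the rise was not called (0.0555 and 0.0764, with 0.00345 to 0.537 over 15 alternatives). Tcf4 gave 0.12 ± 0.16 and, at the dimmer probe set, -1.16 ± 0.17 (adjusted p = 0.00312). Tcf3, with a single dim probe set, gave -0.50 ± 0.34 and did not pass. Over the pathway lists 17 of 28 probe set pairs from 21 genes differed in their change, 12 of them with the brightest higher. This count holds probe sets under the filter level with AMH. Of all 3419 pairs from one gene 41.7% differed, 33.6% with the brightest higher.

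Among tissue-restricted helix-loop-helix factors, which need E proteins to bind DNA, 1 of 10 tested genes was called. Sohlh1, a regulator of oocyte growth, fell by 1.86 ± 0.28 (248.5 and 218.8 to 75.9 and 35.5), and its call was kept in all 15 alternatives. Ascl2 (0.57), Atoh8 (0.47) and Tcf23 (-0.62) did not pass. Of 7 HES, HEY and BHLHE40 family genes, Hes1 and Hes6 (0.62 ± 0.16) rose, Heyl fell (-1.06 ± 0.30) and Bhlhe41 (-0.22) was among 4 not called. Hes6 and Heyl lost their calls without control replicate 1 (0.182 and 0.114) and control replicate 2 (0.193 and 0.144), and Heyl without AMH replicate 2 (-0.67, 0.0736). A second Heyl probe set gave 0.32, and the adjusted p of both genes ran from 0.00421 (Heyl) to 0.613 (Hes6).

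Other proteins that bind or control ID proteins also moved both ways. Of 9 RB, ETS and PAX family genes, Rbl1 (0.85 ± 0.21) and Rb1 (0.67 ± 0.20) rose and 7, with Elk4 (-0.41) and Ets1 (-0.35) lowest, were not called. Usp1, whose product removes ubiquitin from ID proteins, rose at its brighter probe set (0.75 ± 0.14, adjusted p = 0.00964) and fell at the other (-1.06 ± 0.19, adjusted p = 0.00791). Cops5, a signalosome subunit, fell by 1.10 ± 0.14 (adjusted p = 0.00214) and kept its call in all 15 alternatives, while Wdr48, the partner of Usp1, gave -0.57 ± 0.18 (adjusted p = 0.0512, called in 5 of 15 alternatives). The dimmer Wdr48 probe set was called lower (-0.89, 0.0179), as was the mean of both (-0.73, 0.0234, in a range of 0.00852 to 0.301). Without control replicate 1 or 2 the calls of Usp1 (0.75 and 0.75), Rbl1 (0.78 and 0.91) and Rb1 (0.58 and 0.75) ended. That of Rb1 also ended without AMH replicate 1 (0.60). Over all 15 alternatives Usp1 lost its call in 4, Rbl1 in 3 and Rb1 in 7. Their adjusted p ran from 0.00454 to 0.493 for Usp1, 0.00538 to 0.281 for Rbl1 and 0.0313 to 0.438 for Rb1.

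Of 5 tested CDK inhibitor genes, which ID proteins are known to hold down, 1 was higher and 2 lower. Cdkn2c read 443.8 and 434.3 in control and 201.7 and 200.4 with AMH (-1.07 ± 0.16, adjusted p = 0.00368, kept in all 15 alternatives). Cdkn1a, the best known of these targets, read 96.4 and 111.7 against 102.4 and 119.6, with overlapping groups (0.08 ± 0.20). Cdkn1b (-0.55) and Cdkn1c (0.68) passed narrowly, at 0.0494 and 0.0448, and each lost its call in 9 of 15 alternatives. Both were lost without control replicate 1 (0.201 and 0.138), control replicate 2 (0.276 and 0.166) and AMH replicate 2 (-0.39 and 0.39, 0.0763 and 0.0732), and their adjusted p ran from 0.00163 to 0.636. Of 8 factors reported to act at Id promoters, Creb1 (-1.79 ± 0.17) and Sp1 (-1.41 ± 0.19) fell, and Egr1 (0.67 ± 0.22) and Yy1 (0.34 ± 0.14) did not pass. The other 3 tested Sp1 probe sets gave -0.01, 0.19 and -0.36 and were not called, and the mean over its probe sets gave -0.40 (adjusted p = 0.123, with 0.000112 to 0.123 over 15 alternatives).

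**Figure D5:**
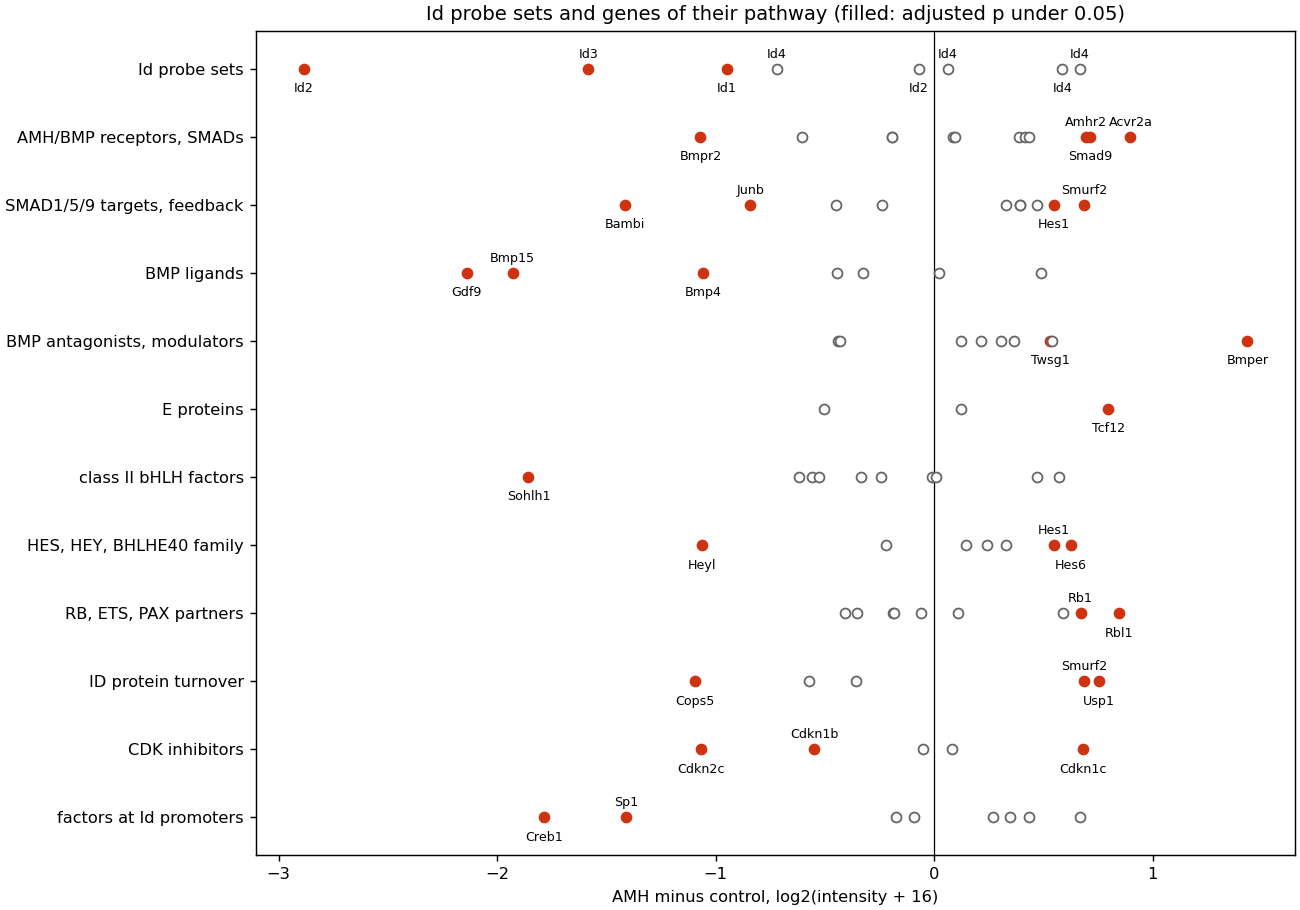
Change with AMH on the log2(intensity + 16) scale for the 8 Id probe sets (top row) and for the genes of 11 pathway lists at their brightest tested probe set. Filled points have an adjusted p under 0.05 and are named. In 5 of the 11 lists both a rise and a fall were called, and in the others calls went one way.

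Endothelial cells are known for high Id1 and Id3, and their markers were read beside them. None of 13 tested markers was called in either direction by limma (3 had an unadjusted p under 0.05), with a median change of 0.13 and a range from -0.63 (Sox18) to 0.70 (Eng). Their summed intensity was 1541.5 and 1609.9 in control and 1745.3 and 1945.4 with AMH. Single arrays moved these counts: Cldn5 (0.94), Erg (0.83) and Sox17 (1.13) were called higher without AMH replicate 1 and Eng (1.27) without AMH replicate 2. With hybridization control scaling Sox18 (-1.03) and Esam (-0.76) were called lower. By moderated statistic Sox18 (-0.63) and Esam (-0.34) were the lowest and Sox17 (0.70) and Erg (0.63) the highest. Pecam1, of the set always named, gave -0.11 ± 0.21. Of 12 granulosa markers 3 were higher, Inhba and Inhbb among them, and Gata4 was lower (summed 4922 and 4109.6 against 8399.9 and 5949). Of 7 oocyte markers 4 were lower, with Gdf9 and Bmp15 among them (7625.3 and 7424.2 against 5893.7 and 5814.9). Gdf9 alone went from 1724.9 and 1732.5 to 453.7 and 317.7. Bmp15 and Kit (18.9 and 3.9) lay under the filter level with AMH. Zp1 (-0.40), Zp2 (-0.004) and Zp3 (-0.002) were not called. Among all tested genes 11.0% were higher and 11.9% lower. Smooth muscle and pericyte markers gave 2 falls among 8 (Des and Acta2), surface epithelium 1 rise (Upk1b) and 1 fall (Cdh1) among 7, and macrophages 1 rise (Cd68) among 8. Theca markers gave 1 rise (Fdx1) among 5 and red blood cells 1 fall (Hbb) among 2. Several of these calls ended when 1 array was left out: Cdh1 (-0.91, 0.0927), Acta2 (-0.94, 0.127) and Gata4 (-0.75, 0.123) without control replicate 1, and Cdh1 (-0.66, 0.213), Cd68 (0.88, 0.0893), Des (-0.87, 0.0995) and Inhba (0.96, 0.0556) without control replicate 2. The adjusted p over all alternatives of these 6 genes ran from 0.00085 (Inhba) to 0.213 (Cdh1). The AMH arrays differed from each other in some markers. Hsd3b1 read 1840.3 and 311.8 with AMH, Star 382.9 and 86.5, Inha 1930.6 and 566.2, Lyz2 133 and 837, and Cd74 84.2 and 474.1. The macrophage and leukocyte markers Lyz2 and Cd74 were called higher without AMH replicate 1 (1.49 and 1.21) and lower without AMH replicate 2 (-1.02 and -1.08). Summed red blood cell markers went from 1406.1 and 1217.6 to 100.3 and 84.5. The part of the cell makeup in the Id values was not tested.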

How the data were processed

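The sample titles gave each array's group and number. The authors deposited 1 linear intensity per probe set and array. The sources used here do not name the summarising software. Their mean without the lowest and highest 2 percent was 125.03 on every array, so they had been scaled per array. Arrays have no read depth.

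Intensities were turned into log2(intensity + 16), a scale on which changes of dim probe sets come out too small. Left out were 57 control probe sets and, of the others, the 40 percent with the lowest mean over all 4 arrays (up to an intensity of 27.8). The group difference was fitted by limma 3.58.1 under R 4.3.3 (lmFit, eBayes with an intensity trend, two-sided, 2 residual and 6.33 prior degrees of freedom), with Benjamini-Hochberg adjustment over 18625 probe sets and a threshold of 0.05. Differences between probe sets were fitted the same way on log2 ratios within arrays. The fits were run on simulated data with independent noise and few changed probe sets, which does not test their behaviour on these arrays.

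Of the probe sets, 20832 have 1 symbol, 436 several and 9831 none listed, and list genes were read at their brightest tested probe set. Named genes were the 2 highest and 2 lowest of each list by moderated statistic, a set always named where measured, and the 5 nearest in pattern. Junb, Hes1, Rb1 and other called members complete short counts. The dimmer probe sets of named genes and the cell type markers Eng, Cldn5, Inha, Lyz2 and Cd74 were added after their values were seen. Foxl2, Zp1, Cyp17a1 and Smad4 are also named outside these rules. Of the set always named, Cdh5 had no probe set listed under its symbol. The Id genes, lists and rules were chosen with earlier results of these data known. The labels call the pools independent. Alternatives were the constant, filter, normalization, moderation, left-out arrays, the replicate block and the mean over probe sets.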

Additional observations from a re-analysis of the deposited data

How the results depend on the processing

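The fall of Id3 and its difference from the brighter Id2 probe set kept direction and call in every alternative run. The fall of the dimmer Id2 probe set and its difference from the brighter one kept their direction. That probe set passed the filter through its control values alone, so this is a description. Id1 was lost without control replicate 1 (-0.79, leaving out 1 array gave -1.11 to -0.79). The brighter Id2 probe set turned sign with quantile normalization (0.14) and without AMH replicate 2 (0.19, range -0.33 to 0.19). The mean of it and the dimmer Id2 probe set was called (-1.48). The third Id4 probe set turned sign with hybridization control scaling (-0.26) and over left-out arrays (-0.11 to 0.23; -0.11 without control replicate 2 and -0.10 without AMH replicate 2), and the dimmest Id4 probe set was called with that scaling (-1.01). Left-out arrays gave 0.36 to 0.81 for the brightest Id4 probe set and 0.21 to 1.12 for the second, called only without AMH replicate 1, so that 0 to 2 Id probe sets were higher. The difference between the brightest and the second Id4 probe set turned sign with 64 added (0.077) and ran from -0.31 to 0.15 over left-out arrays. The difference of Id1 from Id2 ran from -1.09 to -0.67, that of Id1 from Id3 from 0.54 to 0.72 (0.63 without trend, not called) and that of Id2 from Id4 from -1.14 to -0.17 (-0.66 with the replicate block, called). Over all probe sets, 1010 were higher with no filter (1614 as reported), 989 without trend and 146 with hybridization control scaling, which gave 4935 lower. Left-out arrays gave 334 to 2245 higher, 1047 to 2886 lower and 687 to 1380 probe set pairs with a different change, against 1427. A fit without an array takes its spread from the group that still holds both, and the lone array is assumed to vary like it. The cause of these moves was not tested. The replicate block called 1350 probe sets higher and 2216 lower. Deviations of control replicate 1 and AMH replicate 1 from their group means correlated at -0.00082 over probe sets. With 2 arrays per group this is 1 comparison, which cannot decide whether same-numbered arrays were paired. The replicate block changed 1 of the Id results, the difference of Id2 from Id4.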
